A study of Mus musculus with 91 samples.

Results

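The cytosolic ribosome is the machine that translates messenger RNA, and its large and small subunits are built from ribosomal RNA and from a set of proteins that are each encoded, in the mouse, by a single main gene. These genes are active in every cell, and their mRNAs are known for a short run of pyrimidines at the first transcribed bases, through which growth signals set how much of the mRNA is translated. Mutations in single members are known for effects on some tissues more than others, among them the axial skeleton, skin pigment and red blood cells.

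The genes described here are those whose symbol is Rpl or Rps with a number, together with Rplp0, Rplp1, Rplp2 and Rpsa. Copies with names ending in -ps and the S6 kinase genes were left out. In the deposited counts 84 genes had such a name, and 81 of them had a read in at least 10 of the 91 cells and are the members, 49 of the large subunit (Rpl) and 32 of the small subunit (Rps). The 3 genes outside the limit are copies with restricted expression. Rpl3l and Rpl10l had no read in any cell, so that at most 3.30% of such cells could hold one by the limit of 3 counts, and Rpl39l had 130 reads in 2 cells.

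The cells were sorted singly into the wells of 1 plate from pooled pieces of the caudal lateral epiblast, the epithelium beside the node and the primitive streak that feeds the growing body axis. The embryos were wild type, of the outbred strain MF1, at the early headfold stage, at about embryonic day 8.0, and carried no allele or treatment. Full-length cDNA was made by Smart-seq2, and the total count per cell was 709866 to 4439571 (median 2507671), with reads in 6261 to 10448 genes. No embryo is named for any cell, so that the cells are 1 pooled sample, no test between groups of cells was made, and an SD is the spread over cells.

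A cell was called epiblast-like where Nkx1-2, a homeobox gene of the caudal epiblast, had a higher CPM (counts per 1000000 counts of the cell) than Aldh1a2, which makes retinoic acid in the young mesoderm, and mesoderm-like otherwise. This gave 43 epiblast-like and 48 mesoderm-like cells. Summed over 9 epiblast markers, epiblast-like cells had 839 to 3245 CPM and mesoderm-like cells 7.21 to 755 CPM. Over 9 mesoderm markers the sums were 0 to 1011 and 1574 to 7099 CPM. Both lists hold the gene that set the class, and 7 cells had less than a 10-fold difference between Nkx1-2 and Aldh1a2. Of the markers of other tissues, Noto, Shh and Chrd (node or notochord), Sox17 and Foxa1 (endoderm) and Tal1, Gata1 and Hbb-bh1 (blood) had no read in either class. The median summed level of the node, endoderm and blood lists was 0 CPM in both classes, and the highest endoderm sum in a mesoderm-like cell was 1711 CPM. Sums of the neural and surface ectoderm list reached 70.1 CPM in epiblast-like cells and 165 CPM in mesoderm-like ones.

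RefSeq places a transcription start on GRCm38.p6 for 59 of the 81 members, at 70 sites. A start with C followed by at least 4 pyrimidines, the form of the terminal oligopyrimidine motif, was annotated for 14 of the 59 members (23.7%), and for 3.01% of 27025 genes with a start in the same table. Within 5 bases of the start it was found for 49.2% of the members and 21.2% of all genes. Among the 14 members with such a start is Rpl32l, which is annotated as a processed pseudogene. The windows below are shown for members that recur in the results, because this start is the sequence feature for which the family is known. Each holds 10 bases before the start and 20 from it, 5′ to 3′ on the strand of the gene, and capitals mark the run of pyrimidines that opens the transcript.
Rpl15, chr14:18270967-18270996, minus strand: agaaagccttCTTCCTTTCCTCTggcggca
Rps6, chr4:86857348-86857377, minus strand: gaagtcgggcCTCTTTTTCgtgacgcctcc
Rpl38, chr11:114668570-114668599, plus strand: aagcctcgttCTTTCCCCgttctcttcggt
Rplp2, chr7:141447641-141447670, plus strand: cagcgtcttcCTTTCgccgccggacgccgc
Rps24, chr14:24490668-24490697, plus strand: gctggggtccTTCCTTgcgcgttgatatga
Rpl22, chr4:152324426-152324455, plus strand: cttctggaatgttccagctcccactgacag
Rpl24, chr16:55966265-55966294, plus strand: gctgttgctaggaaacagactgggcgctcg
Rpl4, chr9:64173377-64173406, plus strand: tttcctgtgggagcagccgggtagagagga
Rpl5, chr5:107900518-107900547, plus strand: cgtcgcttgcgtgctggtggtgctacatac
Rps27l, chr9:66946076-66946105, plus strand: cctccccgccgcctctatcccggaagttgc
The first 4 open with C and a run of pyrimidines, Rps24 opens with T, and the last 5 open with G and have no capitals. Several members have more than 1 annotated start, and annotated starts of single transcripts can lie some bases away from the position most used in a tissue. The Rpl22 window shown lies upstream of the gene as annotated by GENCODE, which begins at 152325742. The window of its other start, chr4:152325716-152325745, spans that position, and this start also opens with G.

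Other short motifs were counted in the 300 bases from 250 before to 50 after the start, on both strands. CCGGAAG, the core bound by ETS factors, was in the windows of 40.7% of the 59 members and 9.93% of all genes. GGGCGG, the core of GC boxes, was in 61.02% and 38.2%, and AAGATGG, the core of YY1 sites, in 15.3% and 7.28%. TATAAA was in 11.9% of the members and 15.7% of all genes. CTCTTTCC, which can be part of a pyrimidine start, was in 16.9% and 3.57%.

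The members took a small share of the counts of each cell, and the class means of this share differed by much less than the spread over cells. Over the 91 cells it ran from 1.86% to 6.54% with a median of 3.01% and a mean of 3.05% ± 0.695 (SD, n = 91). In epiblast-like cells the lowest, median and highest shares were 2.20%, 3.07% and 4.74%, and in mesoderm-like cells 1.86%, 2.87% and 6.54%. The mean was 3.08% ± 0.560 (SD, n = 43) in epiblast-like cells and 3.02% ± 0.801 (SD, n = 48) in mesoderm-like cells. The means differed by 0.0689 percentage points, which is 9.88% of the pooled SD over cells, and 40 of the 48 mesoderm-like cells lay within the range of the epiblast-like cells, with 2 above it and 6 below it. With the reads of each class pooled, the share was 3.012% (exact Clopper-Pearson interval of 95% confidence 3.009 to 3.016%) and 2.973% (2.970 to 2.976%). These intervals cover counting error only, as Smart-seq2 adds no molecular identifiers and several reads can stem from 1 molecule.

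**Figure D1:**
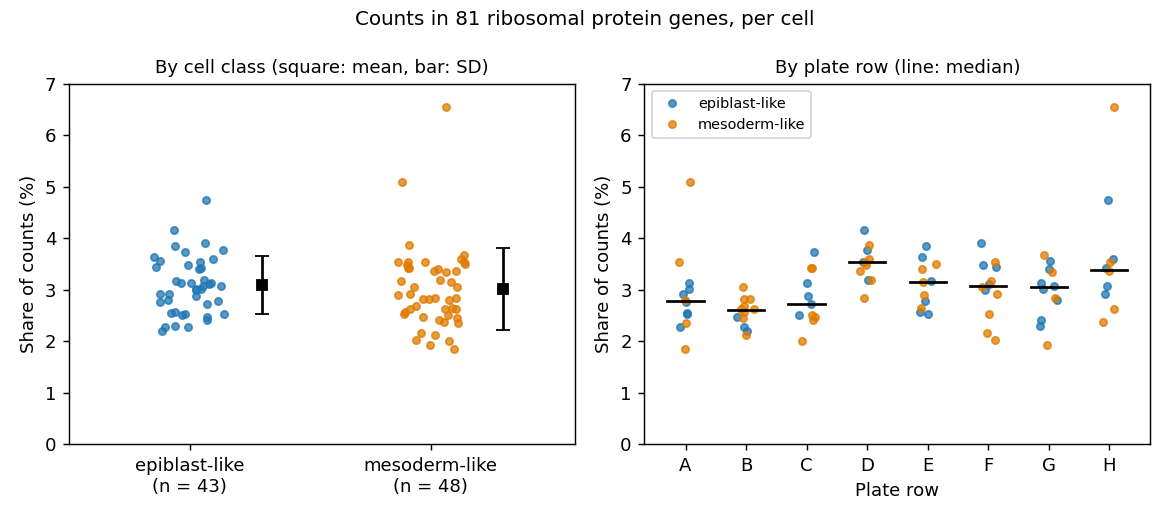
Share of each cell's counts in the 81 ribosomal protein genes, in percent, by cell class (left; the square is the mean and the bar the SD over cells) and by plate row (right; the line is the median of the row). Both classes centre near 3%, 2 mesoderm-like cells lie above every epiblast-like cell, and row medians run from 2.60% to 3.54%.

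The cells with the most ribosomal protein counts were in wells H4 (6.54%, mesoderm-like), A12 (5.08%, mesoderm-like) and H1 (4.74%, epiblast-like). Cell H4 had reads in 6261 genes, the fewest of all cells, at a total count of 2443374. In it 76 of the 81 members were above their own median over cells, 48 of them at least 2-fold, and 44 members had their highest level of all cells there. Cell H4 was picked for its high share of these genes, so the counts only describe it and were not set against all genes. Its translation factors summed to 27349 CPM (median of all cells 23799 CPM) and its ribosome biogenesis genes to 13546 CPM (median 17292 CPM), so that these lists lay on opposite sides of their medians in this cell. The lowest shares were in wells A3 (1.86%), G1 (1.92%) and C12 (2.001%), all mesoderm-like. Without H4 the mesoderm-like mean was 2.94% ± 0.616 (SD, n = 47) and the difference between classes 0.144 percentage points.

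The plate rows, which are positions in the plate and not stated to be batches, had medians from 2.60% in row B to 3.54% in row D, a wider span than the difference between classes. Within rows the epiblast-like median was the higher in 4 of 8 rows and the mesoderm-like median in the other 4, with differences from -0.364 to 0.520 percentage points. The balance of the subunits varied less than the share. Counts of large subunit members over those of small subunit members had a mean of 1.27 ± 0.105 (SD, n = 91), with 1.29 ± 0.0920 (SD, n = 43) in epiblast-like and 1.26 ± 0.114 (SD, n = 48) in mesoderm-like cells.

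Gene by gene, the ribosomal protein genes also stayed close between the classes. The log2 ratio of mean CPM, epiblast-like over mesoderm-like and with 1 CPM added to both means, had a median of 0.01 over the 81 members, and 67 members differed by less than 10%. So did 4099 of the 13767 genes with a read in at least 10 cells. Among the 2318 genes with a mean of at least 100 CPM it was 751. No member was at least 25% higher in epiblast-like cells, and 1, Rpl24, was at least 25% higher in mesoderm-like cells. Of the 13767 genes with a read in at least 10 cells, 24.1% were at least 25% higher in epiblast-like cells and 23.8% in mesoderm-like cells. No member was 2-fold different in either direction, which 14.8% of all genes were (6.58% higher in epiblast-like and 8.20% in mesoderm-like cells). Levels bear on this comparison, since genes with few reads have noisier ratios. Of the 2318 genes with a mean of at least 100 CPM, 37.1% were at least 25% different in either direction, against 0 of the 71 members at that level. At 2-fold it was 4.92% of them, again against 0 members.

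The scaled median absolute deviation of the members was 0.10 on the log2 scale, and that of all genes 0.44. Bounds of 3 deviations around the members' median ran from -0.29 to 0.30, outside of which lay 50.4% of all genes and 39.8% of those with at least 100 CPM. Among the members 1 lay outside, Rpl24. The large subunit members had a median of 0.01 (n = 49) and the small subunit members of 0.00 (n = 32).

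Rpl24 is a protein of the large subunit whose mutation causes the mouse phenotype Belly spot and tail, with a kinked tail and a white belly patch. It was near the floor of detection here. In epiblast-like cells its level was 0, 0.446 and 11.99 CPM (lowest, median and highest) with a mean of 1.40 ± 2.38 CPM (SD, n = 43). In mesoderm-like cells it was 0, 0.704 and 21.3 CPM with a mean of 2.08 ± 4.67 CPM (SD, n = 48). Reads were found in 68 of the 91 cells, 145 in all in epiblast-like (exact Poisson interval 122 to 171) and 268 in mesoderm-like cells (237 to 302). The log2 ratio of -0.36 thus rests on 413 reads, and both classes hold cells with none. It was -0.10 without plate row G, -0.29 without row F, -0.24 with each cell thinned to 500000 counts, -0.08 with 10 CPM added and -0.55 in cells with at least a 10-fold difference between the class genes, so that the 25% difference did not hold in the first 4 of these. In the annotation of GRCm38 the gene lies on the plus strand of chromosome 16 from 55966275 to 55971435. Of its exon bases 46.99% are also exon of Gm28037 on the same strand, a gene with 0 reads in the 91 cells, and 80.9% of the stretches of 75 bases in its coding transcript, the length of a read, also occur in transcripts of other genes. Their part in the low count was not tested.

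The other members at the ends of the ranking had higher levels than Rpl24, although Rpl29 was also low. Of the members with reads in at least 46 cells, Rpl4, Rpl29, Rpl15, Rpl30 and Rps6 had the highest ratios. Rpl4, a core protein of the large subunit, had 1224, 2093 and 3222 CPM (lowest, median and highest) in epiblast-like and 713, 1843 and 2826 CPM in mesoderm-like cells. Its means were 2074 ± 478 CPM (SD, n = 43) and 1763 ± 417 CPM (SD, n = 48), a log2 ratio of 0.23 with broad overlap. Rpl15, a large subunit protein, averaged 545 ± 189 and 464 ± 174 CPM (log2 ratio 0.23). Rps6, the small subunit protein phosphorylated by the S6 kinases, averaged 447 ± 133 and 391 ± 131 CPM (0.20). Rpl30 averaged 307 ± 141 and 268 ± 106 CPM (0.20). Rpl29 was at 6.76 ± 5.92 and 5.60 ± 4.19 CPM (0.23), and 57.4% of its stretches occur in other genes' transcripts, 45 genes in all.

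At the other end, after Rpl24, stood Rpl22, Rps24, Rpsa and Rps29. Rpl22, a large subunit protein that also binds RNA outside the ribosome, had 26.2, 124 and 276 CPM in epiblast-like cells and 20.5, 139 and 582 CPM in mesoderm-like ones. Its means were 138 ± 64.9 and 166 ± 102 CPM (log2 ratio -0.26). Rps24, a small subunit protein, had 211, 367 and 595 CPM against 201, 422 and 921 CPM, and means of 371 ± 88.7 and 445 ± 153 CPM (-0.26). Rpsa, which is also known as the laminin receptor, averaged 278 ± 86.8 and 332 ± 112 CPM (-0.25). Rps29 averaged 264 ± 67.5 and 298 ± 148 CPM (-0.18), with 1154 CPM in its highest cell. In each of these 4 genes the highest mesoderm-like cell was above every epiblast-like cell while the lowest cells of the classes lay near each other. Without cell H4 the bounds around the members narrowed and 4 members lay outside, Rpl24, Rpl22, Rps24 and Rpsa, all lower in epiblast-like cells. Without plate row F or row G there were 0.

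**Figure D2:**
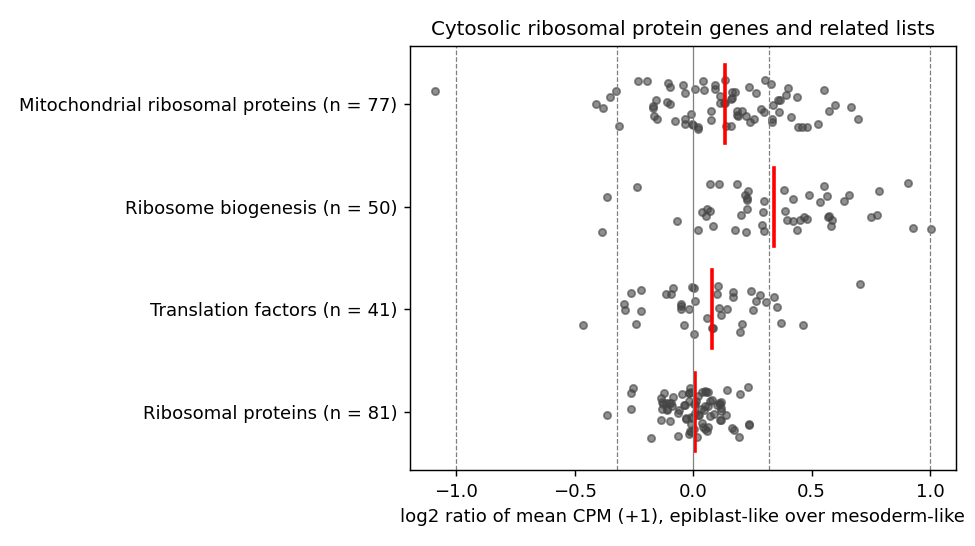
Log2 ratio of mean CPM, epiblast-like over mesoderm-like with 1 CPM added, for each cytosolic ribosomal protein gene and each gene of 3 related lists; the red line is the median of a list and the dashed lines mark a 25% and a 2-fold excess. Ribosomal protein genes lie around 0.01, and ribosome biogenesis genes around 0.34 with 25 of 50 past the 25% line on the epiblast-like side.

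The counts of related lists are read against the 24.1% of all genes that were at least 25% higher in epiblast-like and the 23.8% that were higher in mesoderm-like cells. Of 50 ribosome biogenesis genes, which process ribosomal RNA and assemble the subunits, 25 were at least 25% higher in epiblast-like and 2 in mesoderm-like cells, with a median log2 ratio of 0.34, against 0.01 over all genes. Rrp12, an export factor of the subunits, averaged 56.7 ± 53.2 CPM (SD, n = 43) against 27.8 ± 46.4 CPM (SD, n = 48) (log2 ratio 1.00), and Ftsj3, a ribosomal RNA methyltransferase, 244 ± 131 against 128 ± 111 CPM (0.93). Utp20 and Ubtf, the latter a factor of RNA polymerase I, had ratios of -0.38 and -0.37. Over cells, however, the summed level of the biogenesis list and the share of ribosomal protein counts had a Spearman correlation of -0.17 (n = 91), with -0.30 in epiblast-like (n = 43) and -0.25 in mesoderm-like cells (n = 48).

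Of 41 translation factors, 5 were at least 25% higher in epiblast-like cells and 1 in mesoderm-like cells, with a median of 0.08. Etf1, the release factor that reads stop codons, was at 0.70 and Eif2s1, a subunit of the initiation factor that brings the first tRNA, at 0.46. Tpt1, a growth-related protein whose mRNA has the pyrimidine start, was at -0.47 and Gspt1, the partner of Etf1, at -0.29. Of 77 measured genes for proteins of the mitochondrial ribosome, 20 were at least 25% higher in epiblast-like and 5 in mesoderm-like cells, with a median of 0.14. The epiblast-like count is close to the share of all genes. Their extremes were Mrps31 (0.69), Mrps23 (0.67), Mrps33 (-0.41) and Mrps6 (-1.09). Among 9 hosts of small nucleolar RNAs 2 were at least 25% higher in epiblast-like cells and none in mesoderm-like cells, the former again near the share of all genes, with Snhg12 at 0.43, Snhg5 at 0.40, Snhg6 at -0.12 and Gas5 at -0.25.

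Of the Myc family, regulators of ribosome production, Myc averaged 29.8 ± 38.4 CPM in the epiblast-like class and 17.9 ± 27.2 CPM in the mesoderm-like class (log2 ratio 0.70) and Mycn 148 ± 102 and 189 ± 153 CPM (-0.36), while Mycl was at -0.33. Max, with reads in 35 cells, was at -0.70, so that 1 of the 4 was at least 25% higher in epiblast-like and 3 in mesoderm-like cells. The correlation with the share over cells was 0.17 for Myc and 0.15 for Mycn (Spearman, n = 91). Of 16 genes of the G2 and M phases, 3 were at least 25% higher in epiblast-like and 2 in mesoderm-like cells, with Ccnb1 at 0.71, Tpx2 at 0.44, Top2a at -0.46 and Mki67 at -0.59. Their summed level had a correlation of 0.10 with the share.

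Members grouped by role were close to 0 as well. The stalk proteins, which recruit the translation factors to the large subunit, had log2 ratios of 0.17 (Rplp0), -0.04 (Rplp1) and 0.07 (Rplp2). Of 7 members whose mutation in mice alters the axis, the pigment or early growth, Rpl24 alone was 25% different. Of all genes, 47.9% were at least 25% different in either direction. As given above, Rpl24 was near the floor of detection, and its 25% difference did not hold in every alternative. Rpl38, whose mutation is known for homeotic changes of the vertebrae, was at 0.00, with 229 ± 77.4 CPM in epiblast-like cells and 229 ± 103 CPM in mesoderm-like ones. Rps7 was at -0.09, Rps19 at -0.03, Rps20 at -0.11 and Rpl27a at -0.02, with Rps6 given above. Of 10 members linked to Diamond-Blackfan anaemia, an inherited failure of red cell production, none was 25% different. They ran from -0.26 (Rps24) to 0.11 (Rpl5) and 0.14 (Rps10).

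The X-linked members were Rpl10 (0.12), Rpl36a (-0.01), Rpl39 (0.02) and Rps4x (0.07). Xist, the RNA that coats the inactive X chromosome, reached at least 10 CPM in 14 cells, of which 3 were epiblast-like. In these 14 cells and the other 77, Rpl10 averaged 397 ± 120 and 377 ± 119 CPM, Rpl36a 193 ± 66.4 and 219 ± 67.9, Rpl39 310 ± 133 and 316 ± 145, and Rps4x 525 ± 156 and 497 ± 208. Their log2 ratios, from -0.18 to 0.08, lay within those of the 77 autosomal members, whose median was -0.02 (range -0.55 to 0.25).

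Some ribosomal genes fall outside the naming rule or are duplicate copies. Of 6 outside the rule, Rpl7l1, a nucleolar relative of Rpl7, was the only one at least 25% different, with 278 ± 148 CPM in epiblast-like cells and 188 ± 96.9 CPM in mesoderm-like ones (log2 ratio 0.56). The share of all genes at least 25% different in either direction was 47.9%. Rack1, a scaffold on the small subunit, was at 0.18, Rps3a1 at 0.10, Fau at 0.05 and Rpl22l1, a copy of Rpl22, at 0.03. Rps3a1 had 42233 reads, and Rps3a3, a copy of it named here after its values were seen, had 100368, so that the split of reads between these near-identical genes is uncertain. Among the copies within the rule, Rps27l, a p53-responsive relative of Rps27, was at -0.08, Rpl36al at -0.01 and Rps4l at 0.11.

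The members differed far more among themselves in level than between the classes. Levels between genes are given per kilobase of exon. The median was 184 CPM per kilobase, the middle 50% of members lay between 71.5 and 294, and among the highest were Rps27l (1037), Rpl4 (952), Rplp1 (789) and Rps15 (684). The lowest were Rpl6l (1.11), Rpl24 (1.71), Rpl32l (1.87), Rpl29 (5.46) and Rpl23a (11.6). Rpl6l and Rpl32l are annotated as processed pseudogenes and Rps4l as a transcribed one. Of the exon bases of Rpl23a, 62.3% are also exon of a neighbour, mostly on the other strand, and the strand setting of the counting is not known here.

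Many members have close copies elsewhere in the genome, and how the counting treated reads with several matches is not known here. Of the 78 members with a coding transcript, a median of 44.2% of the stretches of 75 bases occur in transcripts of other genes (range 0 to 98.5%), and 34 members share over 50%. Across these members the shared percent and the level per kilobase had a Spearman correlation of -0.14 (n = 78, genes that are not independent). For the 16 members with less than 25% shared and less than 5% of exon bases shared with another gene, the level still ran from 31.4 CPM per kilobase (Rpl21) to 1037 (Rps27l), with a median of 218, and their log2 ratios from -0.26 to 0.10 with a median of -0.04.

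**Figure D3:**
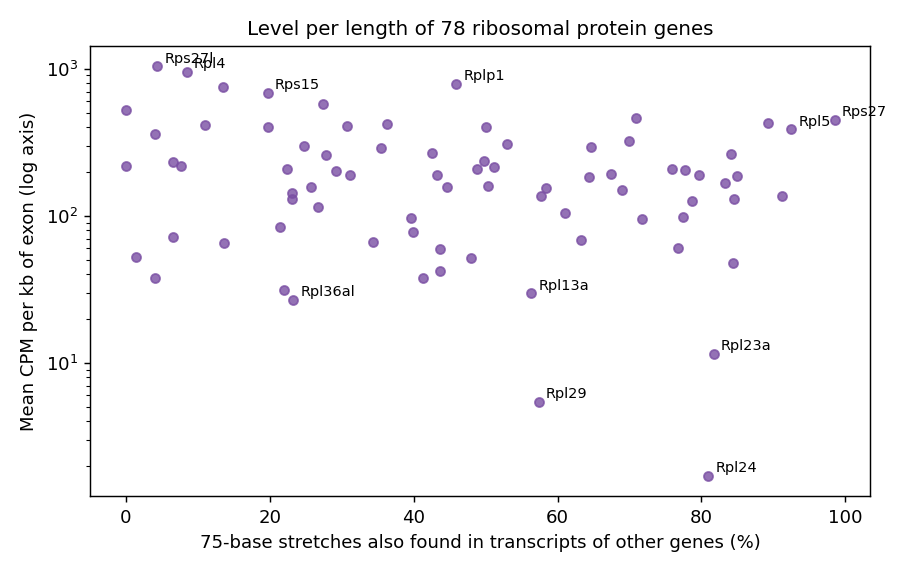
Mean level over 91 cells in CPM per kilobase of exon (log axis) against the percent of 75-base stretches of the coding transcript that also occur in transcripts of other genes, 1 point for each of 78 members. Levels between 30 and 1000 CPM per kilobase are found at low and at high sharing, and the 3 lowest, Rpl24, Rpl29 and Rpl23a, each share over 50%.

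Most members were found in every cell and varied little. A read was found in all 91 cells for 76 of the 81 members. The same held for 1035 (44.7%) of the 2318 genes with a mean of at least 100 CPM. Over cells the coefficient of variation of the 71 members with at least 100 CPM had a median of 36.01% (range 22.6 to 56.9%), against 65.7% in the other genes at that level, and 47 of the 71 were in the lowest 10% of all genes at that level. Of the members with at least 10 CPM the largest were Rps4l (85.3%), Rpl22 (56.9%) and Rpl13a (56.5%). Rps4l had 0 to 187 CPM with reads in 83 cells. Rpl13a, a large subunit protein, had a median of 66.9 CPM (17.4 to 124.6) in epiblast-like and 45.5 CPM (10.03 to 173) in mesoderm-like cells, while its means were 63.8 ± 27.9 and 62.1 ± 41.5 CPM. The 2 averages of Rpl13a thus place the classes differently, with a log2 ratio of 0.04 for the means and 0.55 for the medians.

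Within the cells most ribosomal protein genes went up and down together. Over the 91 cells the median Spearman correlation between pairs of the 71 members with at least 100 CPM was 0.472 (middle 50% from 0.210 to 0.623, 2485 pairs), and 87.4% of pairs were above 0. Between members and other genes at that level the median was -0.009. The pairs share the cells, the libraries and the total to which CPM is scaled. With a total that leaves out the members the median was 0.485. The highest pair was Rps14 with Rps19, both of the small subunit, at 0.875.

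Not all members took part. For 46 of the 71 the median correlation with the other members was at least 0.5, led by Rps14 (0.670) and Rpl38 (0.667). For 5 it was below 0, namely Rpl5 (-0.36), which binds the 5S ribosomal RNA, Rpl39 (-0.24), Rpl23 (-0.14), Rpl30 (-0.07) and Rps27l (-0.07). Among themselves these 5 had correlations of 0.473 to 0.639 (median 0.584), which is a description only, since they were picked for running against the other members. Their log2 ratios between the classes, from -0.08 to 0.20, were within the members' bounds.

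The base composition of members was compared with this pattern after the values had been seen. The median correlation of a member with the others and the GC content of its coding transcript had a Spearman correlation of 0.614 across the 71 members. The 46 members at 0.5 or above had a GC content of 47.1 to 60.8% (median 53.2%). Of the 5 below 0, Rpl5, Rps27l, Rpl23 and Rpl39 had 42.7, 43.1, 46.4 and 48.7%, while Rpl30 had 55.3%.

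**Figure D4:**
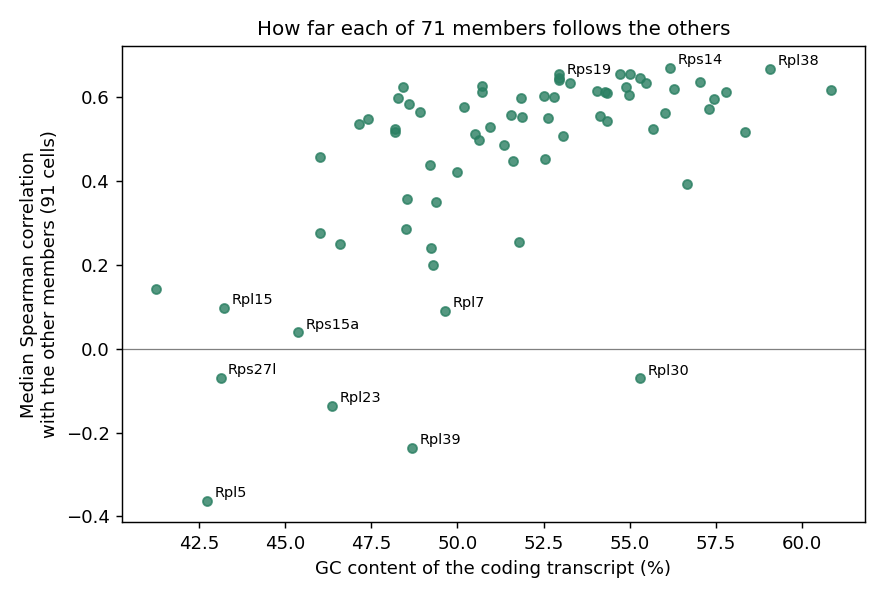
Median Spearman correlation over 91 cells of each of 71 members with the other members, against the GC content of its coding transcript in percent. Most members lie above 0.5, and 4 of the 5 members below 0 (Rpl5, Rps27l, Rpl23, Rpl39) lie at a GC content under 50%, with Rpl30 as the exception.

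The share of ribosomal protein counts moved with the base composition of the rest of the cell's reads. For each cell the GC content of coding transcripts was averaged over the reads of all genes other than the members, which gave 46.4 to 49.4% (median 47.9%) from 21734 genes that hold 93.0% of those reads. Its Spearman correlation with the share was 0.847 (n = 91), with 0.842 in epiblast-like (n = 43) and 0.840 in mesoderm-like cells (n = 48). The share also had a correlation of -0.472 with the total count, with -0.681 in epiblast-like and -0.262 in mesoderm-like cells. It had one of -0.632 with the mitochondrial share of counts (-0.723 and -0.588 in the same order), of 0.094 with the number of genes with a read and of 0.686 with the summed translation factors. The mitochondrial share in turn had one of -0.800 with the GC content. All these values of a cell come from the same library. The ribosomal protein share, the mitochondrial share and the summed translation factors are also parts of the same total. The part of GC content or of RNA quality in the ribosomal protein share was not tested. The classes had median GC contents of 47.9 and 47.8%, and median mitochondrial shares of 3.79 and 4.68%. Cell H4, with the highest share, was at a GC content of 48.6%, the 21st highest of the 91 cells.

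**Figure D5:**
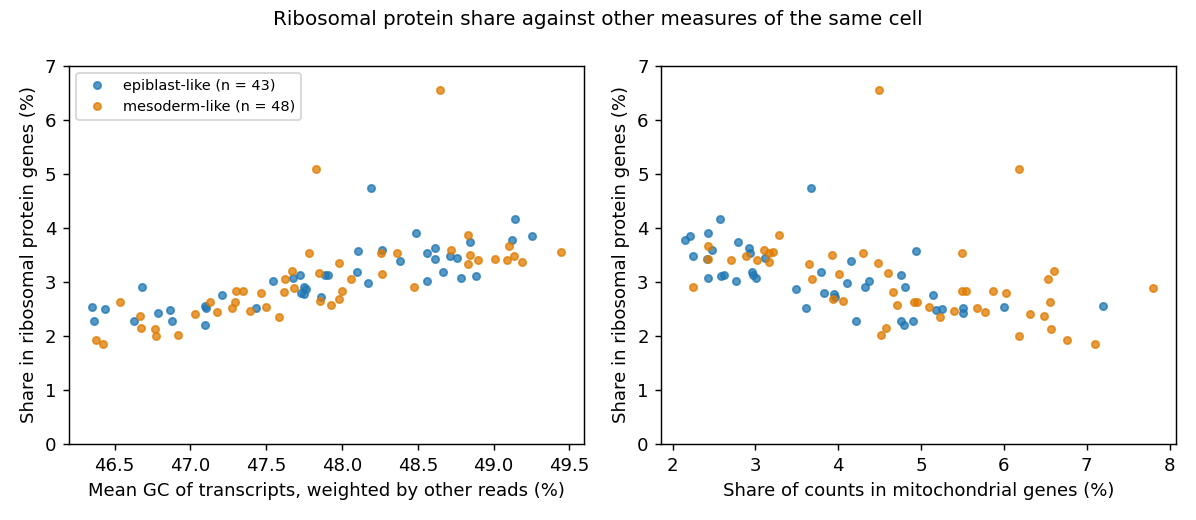
Share of counts in ribosomal protein genes, in percent, against the mean GC content of the transcripts behind the cell's other reads (left) and against the share of counts in mitochondrially encoded genes (right), 1 point per cell. Cells with a higher GC content have a higher share in both classes (Spearman 0.847 over 91 cells), and cells H4 and A12 lie above the rest.

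Genes outside the members that followed the share most closely over cells were led by Gm9625 (0.841) and Ppia (0.834), a prolyl isomerase. Fau (0.828), which encodes a small subunit protein, and Hsp90ab1 (0.813), a chaperone, followed. Gm8730 (0.799), Cfl1 (0.798), Mif (0.791), Elob (0.790) and Tuba1b (0.770) came next. They stood above Rack1 (0.762), a ribosomal scaffold, and Eef1a1 (0.762), the main elongation factor. These were chosen after their values were seen, and mt-Co1 (-0.66), a mitochondrially encoded subunit of cytochrome oxidase, was near the other end.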

How the data were processed

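The authors aligned single-end Smart-seq2 reads to GRCm38 (mm10) with HISAT2 and counted reads per gene with featureCounts. The deposited values are these counts, without normalization, for 91 cells and 53379 genes. For the tool versions, the annotation, strand and the treatment of reads with several matches, nothing is given in the sources used here. Symbols were matched for 53274 identifiers.

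Counts were scaled to 1000000 per cell (CPM). A log2 ratio compares mean CPM after adding 1 CPM. Outliers lay over 3 scaled median absolute deviations from the members' median. Lengths, GC content and shared stretches came from GENCODE M21, from each member's transcript with the longest coding part and, for GC content of other genes, the longest protein-coding transcript, and start sites from RefSeq (GRCm38.p6). Python 3.11.15 with numpy 2.4.6, pandas 2.3.3 and scipy 1.17.1 was used, and the ratios were tested on simulated data. No cell was left out, no 2 cells had the same counts and doublets were not called, since each well was sorted to hold 1 cell.

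Members and lists were chosen with earlier results of these data known. Named are the outliers, the 5 highest and 5 lowest ratios and levels per kilobase, the 3 largest coefficients of variation (mean of at least 10 CPM), short lists by role in full, the 2 largest ratios each way of longer lists, and the 3 cells at each end of the share. Scaling, depth, classes, pseudocount, filter, average and plate rows were varied. Some genes that this rule selects are not reported here.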

Additional observations from a re-analysis of the deposited data

Results flagged for a closer look

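Genes named as copies of ribosomal protein genes (-ps), which the comparisons above leave out, also had reads. Their reads came to 2.08% of those of the members, 146395 reads in 249 of 294 such genes, and every one of the 91 cells had some. Per cell they took 0.0391 to 0.143% of the counts, with medians of 0.0639% (epiblast-like) and 0.0585% (mesoderm-like). Of the 174 copies with reads in at least 10 cells, 2 were at least 25% higher in epiblast-like and 6 in mesoderm-like cells, with a median log2 ratio of 0.00. Of all 13767 genes with a read in at least 10 cells, 24.1% and 23.8% were. Rpl14-ps1 (24341 reads), Rpl3-ps1 (16191) and Rps15a-ps8 (12028) had reads in all 91 cells. Reads of a copy and of its parent gene cannot be told apart where their sequences are the same.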

How the results depend on the processing

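No paired analysis was possible because the cells come from 1 pool and no comparison has a test. The class averages of the share kept within 1 SD in 16 alternatives each, at 3.02 to 3.20% (epiblast-like) and 2.87 to 3.16% (mesoderm-like). The 2.87% is a median over cells, and the SD is far wider than the difference between the classes. Without plate row F the mesoderm-like mean was the higher (3.06% against 3.04%), while in the other alternatives the epiblast-like average was. The median log2 ratio of the members stayed between -0.03 and 0.06 in 19 alternatives, with signs on both sides of 0. The count of members at least 25% different, 1 by the main settings, was 0 with 10 CPM added in place of 1 CPM, 2 with members read in at least 1 cell and 2 with medians over cells. Where the count stayed 1 it was another gene than Rpl24 without plate row F (Rpl22), without row G (Rpl29) and with cells thinned (Rpl32l). The count of outliers, also 1, was 2 with median-of-ratios size factors (Rpl22 and Rpl24) and 2 with members read in at least 1 cell (Rpl39l and Rpl24). It was 0 with 10 CPM added and without plate row F or G, and 4 without plate row H (with Rpl15, Rpl22, Rpsa and Rpl24), 4 without cell H4 and 4 without cells H4 and A12, both chosen after seeing the data. With cells thinned to 500000 counts the 1 outlier was Rpl32l, and with medians over cells it was Rpl13a; the cause was not tested. Of 494 values of 26 named genes 25 moved by more than the members' deviation, and 52, of 11 genes with ratios of at most 0.11 in size, had the opposite sign. Among both were Rps4l (0.11 to -0.16) and Rplp1 (-0.04 to 0.08) with medians over cells and Rps27l (-0.08 to 0.03) without cells H4 and A12. Per kilobase of coding transcript, also chosen afterwards, Rps27l had 1472 and Rpl4 1242 CPM. Low counts limit Rpl24, Rpl29 and the pseudogenes.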
